A study of Mus musculus with 8 samples.

Results

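The 44 genes described here are markers of brain regions that lie next to, or at some distance from, the hippocampus: 12 of the cerebral cortex, 14 of the thalamus and nearby diencephalon, 2 of the habenula, 12 of the striatum and 4 of transmitter systems whose cell bodies lie mainly in the hindbrain and basal forebrain. They were chosen by gene symbol from a table of 34094 genes, each matched exactly 1 row, and all 44 passed the filter on low values. RNA was sequenced from the CA1 field of the hippocampus of C57BL/6 mice of 2 months, from 4 wild-type (WT) libraries and from 4 libraries labelled as a conditional knockout (cKO) and as a knockdown of Brpf1, a gene for a scaffold protein of histone acetyltransferase complexes. The sources used here do not give what drives the knockout, which exons it removes or what alleles the WT mice carried. A protocol speaks of 3 pairs of mice although each genotype has 4 libraries, and it is not known which libraries came from separate mice. All p-values therefore rest on the scatter among libraries, some of which may be technical.

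As background, CA1 is a thin sheet of pyramidal neurons under the cortex, with the thalamus and habenula below it and the striatum and septum in front of it. A gene with a strong level in one of these neighbours and a weak one in CA1 is a common check of how much tissue outside the target entered a dissected sample. Such genes are seldom silent in the hippocampus. Bcl11b and Tbr1 are also made by hippocampal principal neurons, Penk and Tac2 by some hippocampal interneurons, Tcf7l2 by cells of the oligodendrocyte lineage and Lef1 by brain endothelium. In a bulk sample more cells of a type and more RNA per cell cannot be told apart, and no library of pure cortex, thalamus or striatum is at hand, so the values below are levels per library and not shares of foreign tissue.

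Reads on genes ranged from 42346644 to 49897832 in the WT libraries and from 40330226 to 46559795 in the cKO libraries. Values are normalized reads, that is reads divided by the size factor of the library, so that 1 read was worth between 0.864 and 1.09. Brpf1 itself had 1358 to 1473 normalized reads in WT and 848 to 1032 in cKO. Markers of CA1 were abundant in all libraries. Per kilobase of exon, which allows levels of different genes to be compared, Fibcd1 and Wfs1 averaged 1040.3 and 724 normalized reads, and the 7 CA1 markers in the table summed to between 17588 (WT replicate 4) and 27181 (cKO replicate 1). The 8 dentate gyrus markers summed to 12551 to 19277 and the 10 CA2 and CA3 markers to 29963 to 34144, so both lists were read in every library too. The sample titles name hippocampus tissue and no field, and which cells gave these reads was not tested. Choroid plexus markers, which belong to the ventricle beside CA1, differed more between libraries than these hippocampal lists, with sums of 5899 to 173015 in WT and 11305 to 49391 in cKO.

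No region marker separated the genotypes. None of the 44 members passed limma at an adjusted p of 0.05 over all genes, where 0.0191% of all 26135 genes in the test did (0.00765% with cKO higher, 0.0115% with cKO lower), and the lowest adjusted p of a member was 0.540. At an unadjusted p under 0.05 there were 3 members (6.82%), against 8.67% of all genes. They were Zic1 and Chat, lower in cKO as were 4.6% of all genes, and Gpr151, higher in cKO as were 4.07%. The groups overlapped at all 44 members, whereas they did not overlap at 4.92% of all genes, with cKO higher at 2.57% and lower at 2.35%. The log2 fold change was below 0 at 28 of the 44 members and at 52.7% of all genes, and its median was −0.13 over the members and −0.02 over all genes. The authors' deposited table also calls none of the 44 (lowest FDR 0.206, for Zic1), while it calls 0.657% of its genes.

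**Figure D1:**
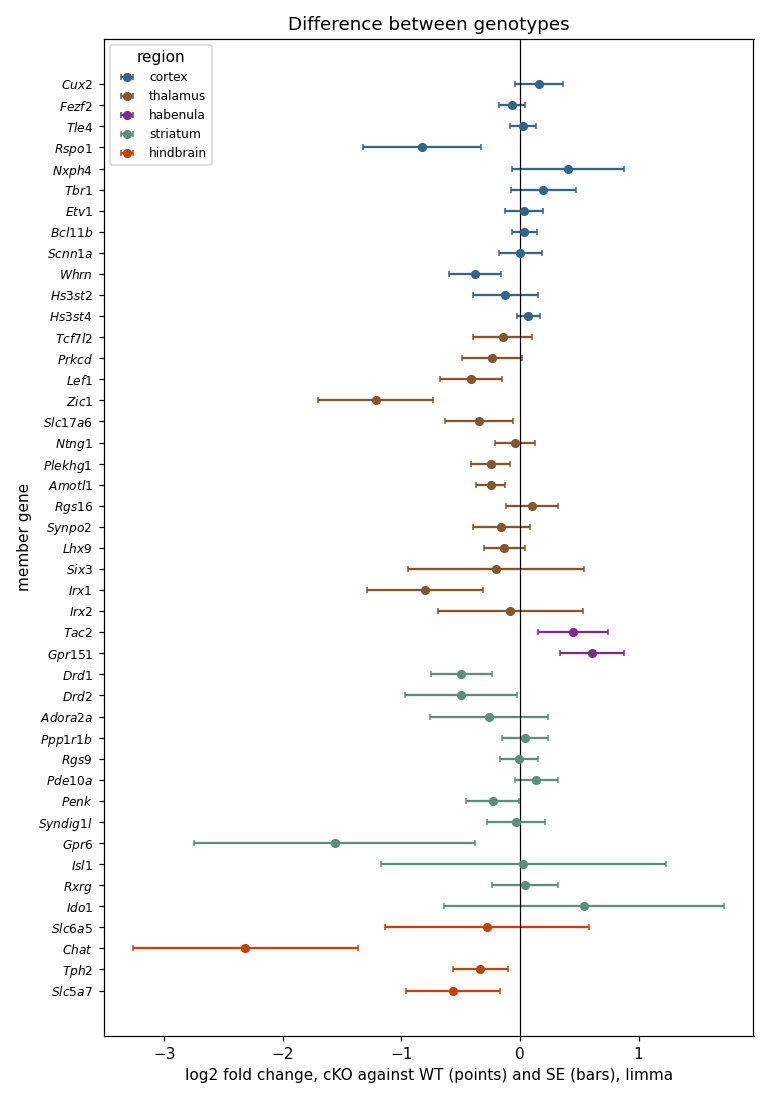
Log2 fold change of each member in cKO against WT (x axis) with its standard error as a bar, ordered by region on the y axis. Chat, Gpr6 and Zic1 have the lowest values, at −2.32, −1.56 and −1.22, Gpr151 and Ido1 the highest, at 0.61 and 0.54, and members with few reads have the widest bars.

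The differences lay between single libraries. WT replicate 3 had the highest value of the 8 libraries at 14 members (31.8%) and WT replicate 4 at 13 (29.5%), although these libraries were the highest at 10.7% and 9.57% of all genes tested. A high share of WT replicate 3 was not particular to these members. It was also the highest at 5 of 8 dentate gyrus, 3 of 7 CA1 and 3 of 10 CA2 and CA3 genes, where WT replicate 4 was at 0, 0 and 1. Of other cells, WT replicate 3 was the highest at 6 of 12 oligodendrocyte, 0 of 12 choroid plexus and 0 of 8 ependymal genes. WT replicate 1 was the highest at 0 members, against 15.2% of all genes. Among the 35 members with a mean of at least 50 normalized reads, cKO replicate 2 held the lowest value at 11 (31.4%) and WT replicate 1 at 8 (22.9%), against 16.5% and 18.8% of all genes of that level. Members of 1 region may share source cells and were not taken as independent of each other, so these counts describe the libraries and carry no test.

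**Figure D2:**
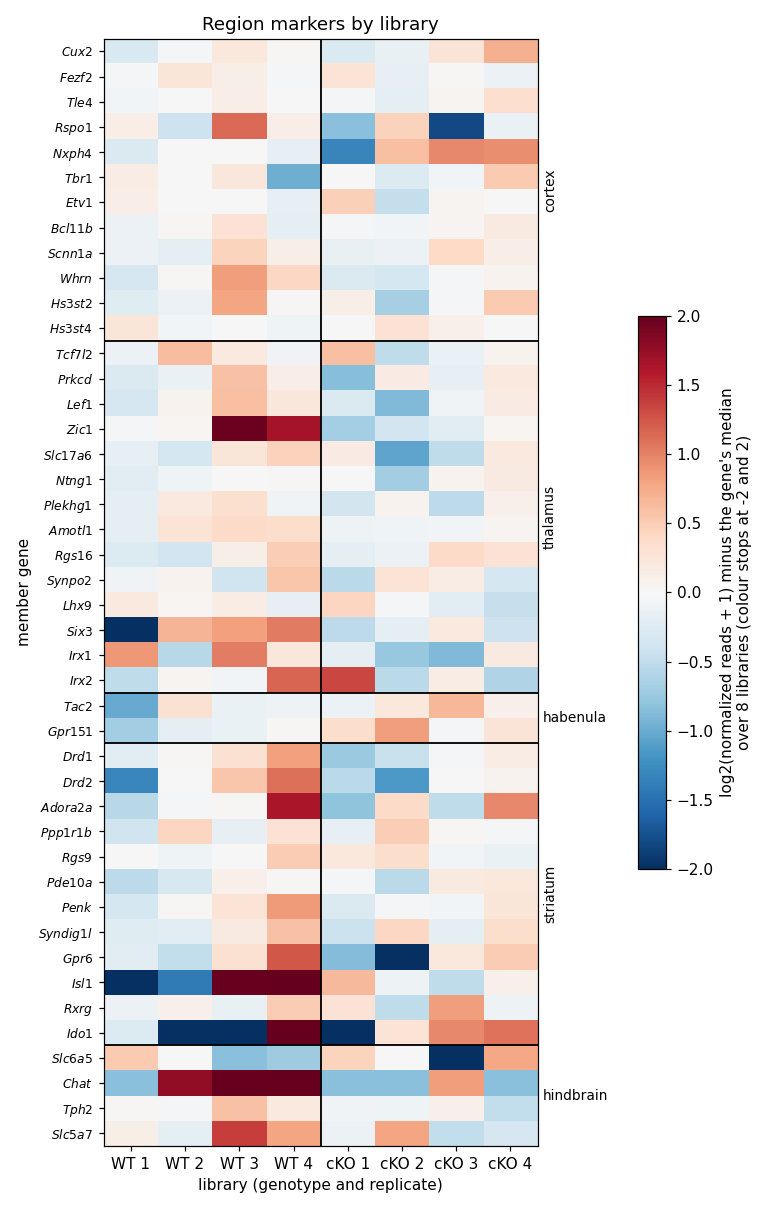
Each row is a member, each column a library, and colour gives log2(normalized reads + 1) minus the median of that gene over the 8 libraries. WT 3 and WT 4 hold most of the dark red fields, among them Zic1, Isl1 and Chat, while WT 1 is below the median at 11 of 12 striatal members.

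Most striatal members were highest in WT replicate 4. The striatum is made up mostly of medium spiny neurons, which fall into a direct pathway type with the dopamine receptor Drd1 and an indirect pathway type with Drd2, the adenosine receptor Adora2a, the enkephalin precursor Penk and the orphan receptor Gpr6. Of the 12 striatal members 9 had their highest value in WT replicate 4. As a summary per library, the median over these members of the log2 value minus the gene's own median was 0.83 in WT replicate 4, 0.14 in WT replicate 3 and 0.18 in cKO replicate 4, and it was lowest in cKO replicate 1 (−0.36) and WT replicate 1 (−0.31). Over all genes tested the same summary lay between −0.01 and 0.01. Normalization holds that value near 0 in every library, so it does not show how far a median over 12 genes can stray.

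Drd2 (ENSMUSG00000032259) had 42.7, 107, 156 and 229.7 normalized reads in WT replicates 1 to 4 and 73.0, 47.2, 106 and 111 in cKO replicates 1 to 4. The WT libraries thus spanned both the lowest and the highest value, 5.39-fold apart, a wider range than at 97.4% of the genes with a mean of at least 50. Its log2 fold change was −0.50 (SE 0.47, limma adjusted p = 0.786). Adora2a (ENSMUSG00000020178) had 46.8, 68.1, 69.7 and 215 in WT and 39.2, 90.4, 48.1 and 135 in cKO, in the same order of replicates. Replicate 4 stood above the others in either genotype, and the log2 fold change was −0.26 (SE 0.50, limma adjusted p = 0.918).

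Drd1 (ENSMUSG00000021478), the receptor of the direct pathway, had 182, 213, 260.3 and 370.5 normalized reads in WT and 126, 154, 208 and 235 in cKO. WT replicate 4 was again the highest and WT replicate 3 also lay above every cKO library, while WT replicates 1 and 2 lay within the cKO range (log2 fold change −0.50, SE 0.26, limma adjusted p = 0.606). Penk had 583, 759, 905 and 1348 in WT and 612, 732, 721 and 878 in cKO, with WT replicate 4 above all others. Gpr6 had 32.2, 26.4, 46.5 and 89.8 in WT and 20.1, 0, 43.7 and 53.6 in cKO. WT replicate 4 was the highest and cKO replicate 2 had no read, and the log2 fold change of −1.56 had an SE of 1.2. Syndig1l, which is enriched in caudate and putamen, and Rgs9, a regulator of dopamine receptor signalling, reached 374 and 937 in WT replicate 4, against at most 334 and 840.3 in any other library.

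Other striatal members followed this order less closely. Ppp1r1b, which encodes the dopamine-regulated phosphatase inhibitor DARPP-32, ranged from 2093 (WT replicate 1) to 3868 (cKO replicate 2), and the phosphodiesterase gene Pde10a from 1127 (cKO replicate 2) to 1893 (cKO replicate 4). The retinoid receptor gene Rxrg was highest in cKO replicate 3, at 282, and lay between 111 and 225 elsewhere. Per kilobase of exon, Ppp1r1b averaged 999 normalized reads and Penk 500.1, levels of the order of the CA1 marker Wfs1, while Drd1, Drd2, Adora2a and Gpr6 averaged 60.2, 42.8, 29.1 and 21.9. From the lowest to the highest library Drd2 and Adora2a spanned 5.39-fold and 5.49-fold and Drd1 2.94-fold, against 1.85-fold for Ppp1r1b and 1.68-fold for Pde10a.

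Isl1 and Ido1 had few reads. Isl1, a LIM homeobox gene of direct pathway and cholinergic neurons, had 0, 3.05, 53.9 and 60.5 normalized reads in WT and 15.9, 9.04, 6.56 and 10.5 in cKO. Its WT libraries thus fell on either side of all cKO libraries, and the log2 fold change of 0.03 (SE 1.2) averaged over them. Ido1, a tryptophan-degrading enzyme, had 32.8 in WT replicate 4 and at most 9.58 elsewhere.

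A further 15 striatal genes, listed for this comparison and not members, were read in the same way. None passed over all genes, and 1 of them (Drd3, with 21 reads in WT and 5 in cKO) was lower in cKO at an unadjusted p under 0.05. WT replicate 4 was the highest library at 5 of the 15 (33.3%), against 9.57% of all genes tested. Its lead was thus smaller here than among the striatal members (75.0%), and most of these further genes were highest in other libraries. Among those 5, Scn4b, a sodium channel subunit, reached 1325 normalized reads in WT replicate 4 and ranged from 518 to 888 in the other libraries. WT replicate 4 had the second highest sum of choroid plexus markers (74562), and the part of this in the striatal values was not tested. Its sum of CA1 markers was the lowest of the 8 libraries. The CA1 gene Mpped1 had 1270 normalized reads in WT replicate 4, 1329 and 1717 in cKO replicates 3 and 4, and 2438 in WT replicate 3. In replicates 1 and 2 of either genotype Mpped1 had 5550 to 6981. Over the other 6 CA1 markers WT replicate 4 (16318) was still the lowest, but level with cKO replicate 2 (16407) and WT replicate 1 (16431).

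**Figure D3:**
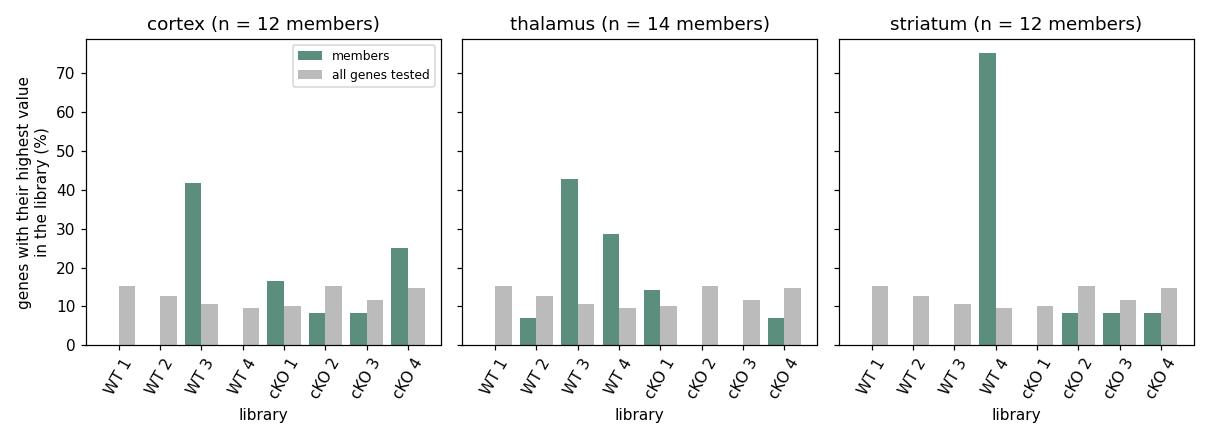
Share of genes whose highest value of the 8 libraries falls in each library (y axis, percent), for cortical, thalamic and striatal members (green) and for all genes tested (grey). In the striatal panel WT 4 stands at 75.0% against 9.57% of all genes, and in the cortical and thalamic panels WT 3 stands at 41.7% and 42.9% against 10.7%.

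Most thalamic and diencephalic members were highest in WT replicates 3 and 4. Of the 14 members 6 had their maximum in WT replicate 3 and 4 in WT replicate 4, and the summary per library was 0.28 and 0.30 there, against −0.29 in cKO replicate 2 as the lowest. Over the 12 members with a mean of at least 50, cKO replicate 1 was the lowest instead, at −0.24, and cKO replicate 2 stood at −0.16. At 13 of the 14 the log2 fold change was below 0 (median −0.22), where 52.7% of all genes were below 0. None passed over all genes and only Zic1 had an unadjusted p under 0.05.

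Zic1 (ENSMUSG00000032368) encodes a zinc finger transcription factor of the medial diencephalon, septum and cerebellum. It had 601, 629.8, 2395 and 1959.6 normalized reads in WT and 385, 469.8, 526 and 634 in cKO. WT replicates 3 and 4 stood more than 3-fold above each of the other 6 libraries, and WT replicates 1 and 2 lay at the upper edge of the cKO range. The log2 fold change was −1.22 (SE 0.49, limma unadjusted p = 0.0381, adjusted p = 0.553), and the two-sided exact permutation p was 0.0857. With WT replicates 3 and 4 both left out, chosen because they were seen to be high, it was −0.31 (unadjusted p = 0.156). Zic4, a related gene on the opposite strand whose exons overlap those of Zic1 in GENCODE, had 83.2, 82.3, 356 and 347 in WT and 49.8 to 96.1 in cKO. Whether the counting used strand is not stated in the labels, so reads of this pair may be shared. Zic2, another family member, lay at 851 and 655 in WT replicates 3 and 4 and at 351 to 529 in the other 6. Zic1 is also made in the meninges and the cerebellum. The 9 listed markers of meninges and fibroblasts summed to 6271 and 11594 in WT replicates 3 and 4 and to 4854 to 16817 in the others, and their part in the Zic1 values was not tested. Gabra6, a receptor subunit of cerebellar granule cells, had 4.65 and 6.91 in WT replicates 3 and 4, 58.3 in WT replicate 1 and at most 9.14 in the others.

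Six3 (ENSMUSG00000038805), a homeobox gene of the anterior forebrain, had 10.4, 113, 125 and 145 normalized reads in WT and 48.7, 61.2, 80.8 and 52.7 in cKO. WT replicate 1 was the lowest and the other 3 WT libraries were above all cKO libraries, a 13.9-fold range that was wider than at 99.1% of genes of this level. The log2 fold change was −0.20 (SE 0.74, limma adjusted p = 0.970). Its antisense neighbour Six3os1 likewise had 15.6 in WT replicate 1 and 89.2 to 130.0 in the other WT libraries, against 10.5 to 31.7 in cKO, with the same limit on strand.

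Slc17a6 (ENSMUSG00000030500), the vesicular glutamate transporter of thalamic and other subcortical neurons, had 552, 485, 729.8 and 849 normalized reads in WT and 695, 297, 436 and 709.6 in cKO. The groups overlapped widely (log2 fold change −0.34, SE 0.29, limma adjusted p = 0.744). Prkcd, a protein kinase C isoform abundant in thalamic relay neurons, ranged from 545 in cKO replicate 1 to 1467 in WT replicate 3. Tcf7l2, a Wnt effector and a defining transcription factor of the thalamus, did not share that order: it was highest in WT replicate 2 (261) and cKO replicate 1 (259) and lowest in cKO replicate 2 (119). Per kilobase of exon Tcf7l2 averaged 21.2 normalized reads. The sum of 12 oligodendrocyte markers, which bears on this gene, ranged from 101013 in cKO replicate 1 to 181159 in WT replicate 1, and its part in the Tcf7l2 values was not tested. Another thalamic member, Lef1, ranged from 82.3 in cKO replicate 2 to 232 in WT replicate 3.

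The remaining thalamic members varied less or had few reads. Ntng1, an axon guidance ligand, Plekhg1, Amotl1, an angiomotin family scaffold, Rgs16, a G protein regulator, and Lhx9, a LIM homeobox gene, spanned 1.48-fold to 1.86-fold over the 8 libraries, and the actin-binding gene Synpo2 spanned 2.15-fold. Amotl1 had 980.0 in WT replicate 1, 1351 to 1455 in the other WT libraries and 1044 to 1155 in cKO, so only WT replicate 1 made the groups overlap. The Iroquois homeobox genes Irx1 and Irx2 were covered by 67 and 27 reads in all WT libraries together and by 33 and 24 in all cKO libraries. Among 12 further thalamic and habenular genes none passed over all genes, and at an unadjusted p under 0.05 Pou4f1 was higher in cKO and Lrrc55, a potassium channel subunit gene, lower (WT 875 ± 53.8, cKO 652 ± 228, SD, n = 4). Gbx2, a homeobox gene of the developing thalamus, had 17 WT and 6 cKO reads. These further genes did not show the order of the members: WT replicate 3 was the highest library at 2 of the 12 and WT replicate 4 at 1, against 3 each for WT replicate 2 and cKO replicate 4.

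Both habenular members had log2 fold changes above 0. Gpr151 (ENSMUSG00000042816), an orphan receptor of habenular neurons, had 31.2, 44.7, 46.5 and 51.8 normalized reads in WT and 65.6, 92.4, 50.3 and 61.3 in cKO. cKO replicate 3 alone fell within the WT range, below WT replicate 4. The log2 fold change was 0.61 (SE 0.27, limma unadjusted p = 0.0457, adjusted p = 0.574), and the exact permutation p was 0.0571, where 4 libraries against 4 can give no value below 0.0286. Tac2 (ENSMUSG00000025400), the neurokinin B precursor of the medial habenula and of some interneurons, had 42.7, 107, 79.0 and 80.3 in WT and 79.4, 100.4, 138 and 92.9 in cKO. WT replicate 1 was the lowest library for either gene. Of the listed habenular genes outside the members, Pou4f1, a transcription factor of habenular and sensory neurons, had 0, 0, 0 and 18.1 in WT and 30.7, 52.2, 59.0 and 54.6 in cKO (limma unadjusted p = 0.00044, adjusted p = 0.291). The nicotinic receptor subunit gene Chrnb4, which the medial habenula makes in quantity, had 0 to 35.6 in WT and 7.41 to 20.1 in cKO.

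**Figure D4:**
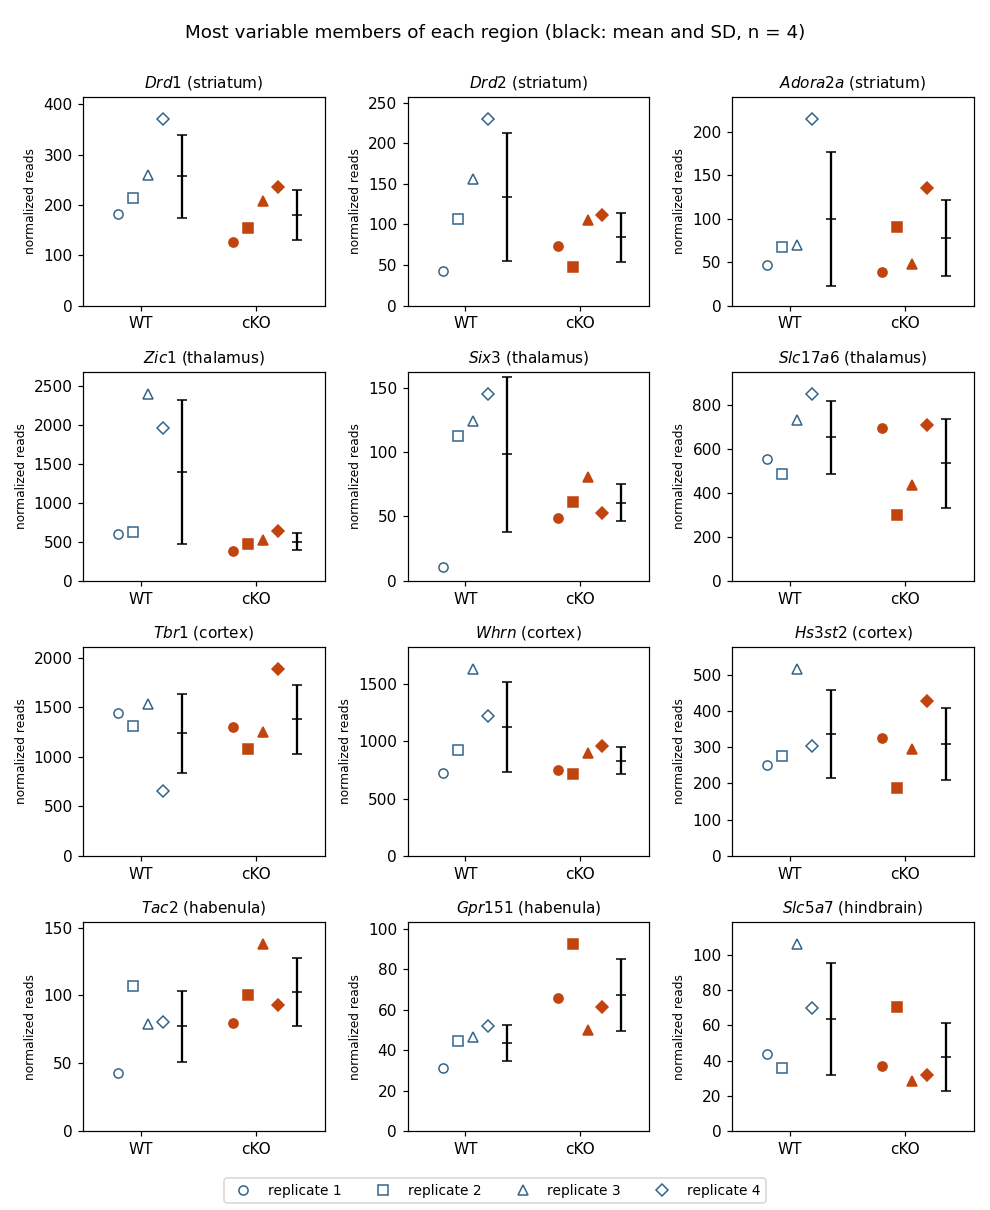
Normalized reads (y axis, from 0) of the members with the widest range in each region, by genotype (x axis). Symbols mark the replicate number, open for WT and filled for cKO, and black bars the mean and SD of 4 libraries. WT replicate 4 is on top for Drd1, Drd2 and Adora2a, and WT replicates 3 and 4 stand apart for Zic1.

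Cortical markers were more even between libraries than thalamic or striatal ones. Over the 10 cortical members with a mean of at least 50 the highest library exceeded the lowest 1.73-fold at the median, compared with 2.17-fold for 12 thalamic and 2.31-fold for 9 striatal members and 1.49-fold for all genes of that level. These cortical members also had higher levels, with means of 267 to 5753 normalized reads. Thalamic means were 79.5 to 1580 and striatal ones 89.0 to 2925, and the part of level in these ratios was not tested. Of the 12 members 4 had a log2 fold change below 0, where 52.7% of all genes did, and the median was 0.03. WT replicate 3 was highest at 5 members (41.7%) and cKO replicate 4 at 3 (25.0%), against 10.7% and 14.6% of all genes tested. The summaries per library were 0.22 and 0.16 in these 2 libraries, against −0.16 in cKO replicate 2.

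The deep-layer genes were strongly read. Bcl11b and Fezf2, transcription factors of layer 5 projection neurons, averaged 709 and 421 normalized reads per kilobase of exon, Tle4, a corepressor of layer 6 neurons, averaged 390.1 and Etv1, an ETS factor of layer 5, 339. Over the 8 libraries these 4 genes spanned 1.36-fold to 1.92-fold. Hs3st4, a heparan sulfate sulfotransferase of layer 6, was the member with the highest level per kilobase, 1662, and one of the most even ones (4788 to 6212 normalized reads). Its level per kilobase lay above those of the CA1 markers Fibcd1 (1040.3) and Wfs1 (724). Which cells gave the reads of these deep-layer genes was not tested. Other cortical members were lower on the same scale. Scnn1a, an ion channel subunit of layer 4, averaged 64.5 per kilobase and ranged from 220.4 to 342 normalized reads over the libraries. Nxph4, which marks layer 6b, and Rspo1, a secreted activator of Wnt signalling, averaged 25.5 and 19.7 per kilobase.

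Tbr1 (ENSMUSG00000035033), a T-box factor of layer 6 and of hippocampal neurons, had 1441, 1310.4, 1529 and 659 normalized reads in WT and 1297, 1077, 1253 and 1882 in cKO. The low value lay in WT replicate 4, the library in which most striatal members were highest, and the high one in cKO replicate 4 (log2 fold change 0.20, SE 0.28, limma adjusted p = 0.870). Whrn (ENSMUSG00000039137), a PDZ scaffold gene, had 725, 924, 1626 and 1220.3 in WT and 749, 712, 898 and 960.4 in cKO. Its 2 high values were in WT replicates 3 and 4, as for Zic1 (log2 fold change −0.38, SE 0.22, limma adjusted p = 0.634). Hs3st2 (ENSMUSG00000046321), a second heparan sulfate sulfotransferase, had 252, 275, 515 and 304 in WT and 325, 189, 294 and 428 in cKO, highest in WT replicate 3. That library was also the highest of the 8 for 5 of 8 dentate gyrus markers, whose sum there was 19277, and the part of this in the cortical values was not tested. Cux2, a homeobox gene of upper layers, was highest in cKO replicate 4 at 1392 and lay between 686 and 1009 in the others.

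Nxph4 had 29.1 to 36.3 normalized reads in WT and 13.8, 55.2, 71.0 and 68.9 in cKO, so that 3 of 4 cKO libraries lay above every WT library and 1 below. Rspo1 had 81.8 in WT replicate 3, 9.83 in cKO replicate 3 and 20.1 to 51.2 in the others. Of 14 further cortical genes none passed over all genes and 2 were higher in cKO at an unadjusted p under 0.05. These were Rprm, a layer 6 gene with a WT mean of 819.8 ± 137 and a cKO mean of 1147 ± 192 (SD, n = 4), and Otof, with 266 ± 26.0 and 361 ± 82.7. At 9 of the 14 (64.3%), cKO replicate 4 was the highest library. It was the highest at 14.6% of all genes tested and at 18.9% of those with a mean of at least 50. WT replicate 3 was the highest at 1 of the 14, so its lead among the cortical members did not recur in these further genes.

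Transmitter genes of hindbrain and basal forebrain cells were close to the limit of detection, apart from Tph2 and Slc5a7. Slc6a5, the glycine transporter of inhibitory neurons of the brainstem and spinal cord, had 13.5, 9.14, 4.65 and 5.18 normalized reads in WT and 12.7, 9.04, 0 and 16.3 in cKO, or 33 and 38 reads. The groups overlapped fully (log2 fold change −0.28, SE 0.86). Tph2 (ENSMUSG00000006764), the enzyme of serotonin synthesis in the raphe, had 64.5, 63.0, 96.7 and 73.4 in WT and 60.3, 60.2, 68.8 and 45.0 in cKO. With a log2 fold change of −0.33 (SE 0.23) the limma adjusted p was 0.695. Genes that serotonergic neurons share with Tph2 were far lower: the serotonin transporter Slc6a4 had at most 13.8 normalized reads in any library, and the transcription factor gene Fev had 3 reads in WT and 0 in cKO.

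Chat (ENSMUSG00000021919), the acetylcholine-synthesizing enzyme, had 0, 5.08, 19.5 and 14.7 normalized reads in WT and 0, 0, 2.19 and 0 in cKO, which is 43 reads against 2. The WT to cKO ratio of 20.1 has an exact 95% binomial interval of 5.23 to 171, which covers counting error only and takes no account of the spread among the WT libraries, of which 1 had no read. Chat passed the filter with just 4 libraries, and limma gave a log2 fold change of −2.32 (SE 0.95, unadjusted p = 0.0334, adjusted p = 0.540). The exact permutation p was 0.143. Slc5a7 (ENSMUSG00000023945), the choline transporter that feeds acetylcholine synthesis, had 43.7, 35.6, 106 and 69.95 in WT and 37.0, 70.3, 28.4 and 31.6 in cKO. Its highest value was in WT replicate 3, as for Chat, and cKO replicate 2 lay at the level of WT replicate 4 (log2 fold change −0.56, SE 0.40, limma adjusted p = 0.698). Slc18a3, the vesicular acetylcholine transporter, whose gene lies within the Chat locus, had 0, 3.05, 19.5 and 19.0 in WT and 0, 3.01, 7.65 and 8.62 in cKO. Of the 22 further hindbrain, midbrain and spinal genes in the table only 12 passed the filter, and none of these passed over all genes. At an unadjusted p under 0.05 the transcription factor gene Gata3 was lower in cKO, with 21 reads against 7, and Hoxc4 was higher. Hoxc4, a homeobox gene of the caudal hindbrain and spinal cord, had 0, 0, 1.86 and 0 normalized reads in WT and 12.7, 17.1, 29.5 and 56.5 in cKO (limma log2 fold change 4.30, SE 0.63, adjusted p = 0.102), and the authors' deposited table calls it at an FDR of 0.00046. The other Hox genes of the list had few reads. Hoxb4 had 20 WT and 11 cKO reads and Hoxb2 had 0 and 2, while Hoxa5, Hoxb5 and Hoxd3 had 5, 7 and 9 reads, each in a single WT library, and none in cKO.

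The order of libraries was compared for 8 pairs of genes over the 8 libraries. For Drd2 and Adora2a, which the same neurons make, Pearson's r was 0.58 (exact permutation p = 0.130, adjusted p = 0.386) and Spearman's rho 0.67 (exact permutation p = 0.083, adjusted p = 0.332), and r was 0.79 without WT replicate 1 and cKO replicate 2, the libraries farthest from the Drd2 median. For Chat and Slc5a7 r was 0.55 (exact permutation p = 0.163, adjusted p = 0.386), rho was 0.30 (exact permutation p = 0.470, adjusted p = 0.752) and r turned to −0.43 without WT replicates 3 and 4, so that relation rests on these libraries. For Tac2 and Gpr151 r was 0.53 (exact permutation p = 0.170, adjusted p = 0.386), rho 0.24 (exact permutation p = 0.582, adjusted p = 0.776) and r 0.20 without the 2 libraries farthest from the Tac2 median. For Slc6a5 and Tph2 the relation was negative, with rho −0.71 (exact permutation p = 0.058, adjusted p = 0.332), r −0.47 (exact permutation p = 0.241, adjusted p = 0.386) and r −0.78 without WT replicate 3 and cKO replicate 3. No pair passed after adjustment over the 8, and for the thalamic pair Tcf7l2 and Prkcd r was −0.42 (exact permutation p = 0.299, adjusted p = 0.398), rho was −0.05 and r turned to 0.40 without WT replicate 2 and cKO replicate 1. The second striatal pair, Drd1 and Ppp1r1b, had r 0.16 (exact permutation p = 0.709, adjusted p = 0.709) and rho 0.02. Its r turned to −0.39 without WT replicate 4 and cKO replicate 1. Tcf7l2 and Drd2 had r 0.26 and rho 0.38, and Tcf7l2 and the choroid plexus gene Ttr r 0.51 and rho 0.40. Without WT replicate 2 and cKO replicate 1 r was 0.63 and 0.08 for these pairs.

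Leaving libraries out moved the direction of several members. WT replicates 3 and 4 were left out together because these members were seen to be high there, so higher fold changes follow from that choice. Without them the log2 fold change of Drd2 was 0.24, of Adora2a 0.29, of Penk 0.13, of Prkcd 0.05 and of Six3 0.75, all above 0 where all 8 libraries gave values below 0. In that fit 18 of 43 members tested were below 0, against 53.9% of all genes. Without WT replicate 1, 7 of 44 members (15.9%) had an unadjusted p under 0.05, against 7.18% of all genes in that fit. All 7 were lower in cKO, as were 4.06% of all genes: Whrn, Zic1, Amotl1, Six3, Drd1, Drd2 and Chat. WT replicate 1 was the lowest WT library at each of them, so lower fold changes follow from leaving it out. Without WT replicate 3 there were 0, against 10.8% of all genes. In all of these fits none of the members passed over all genes.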

How the data were processed

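RNA was extracted with Trizol and made into stranded mRNA libraries, per the labels' protocols. The submitters' processing notes name STAR, StringTie and DESeq2 without versions, and the build mm9. The sources used here give neither annotation nor strand setting nor the test behind the deposited p-value and FDR. The authors deposited a log2 value per gene and library. It equals log2(reads / size factor + 1), since 100% of values give whole reads (tolerance 0.001 reads), which also gave the depth. Their deposited log2 fold change is the difference of group means, which were not used.

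limma 3.58.1 in R 4.3.3 compared 4 cKO with 4 WT libraries on these deposited values (mean-variance trend, robust, pseudocount 1 as deposited, no covariate) for the 26135 genes with at least 1 normalized read in at least 4 libraries. Adjusted p is Benjamini-Hochberg. limma-voom on the recovered reads was an alternative. Per-kilobase levels use the exon union of GENCODE vM21 (GRCm38), matched by gene ID, with no coordinates. Members and lists were chosen with earlier results of these data known. Values in every library are given for members with an unadjusted p under 0.05, for the 3 widest-ranging members per region with a mean of at least 50, and for habenular and hindbrain members, and for others, and for listed genes outside the members, where chosen after their values were seen. The lists of hypothalamus, cerebellum, ependyma, oligodendrocytes, meninges, endothelium and interneurons are summarised in the last section. The procedure was checked on reads simulated with the same relative spread for every gene, which does not cover the wider scatter of some members. Figures were drawn with matplotlib 3.10.9.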

Additional observations from a re-analysis of the deposited data

Results flagged for a closer look

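Within 1 genotype, 4 of the 88 sets of 4 libraries examined had a library far from the other 3. The cutoff used flags about 1 set in 20 by chance, so the number flagged was close to that rate and does not set these members apart. In 3 of the 4 sets the distant library was WT replicate 4. Adora2a had 215 normalized reads there and at most 69.7 in the other WT libraries, Rgs9 had 937 and at most 663.7, and Ido1 had 32.8 and at most 3.12. The fourth was Chat in cKO, with 2.19 normalized reads in cKO replicate 3 and 0 in the other 3 cKO libraries. With 3 libraries at 0 any single read would stand apart in this way, so this last case carries no weight.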

How the results depend on the processing

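None of the members passed over all genes under any of the 16 alternatives, where the lowest adjusted p was 0.281 (Nxph4, without cKO replicate 1). The number of all genes passing was 5 and became 8 with array weights, 11 without WT replicates 3 and 4 (chosen after seeing the data) and 3 to 7 with 1 library left out, the lowest without WT replicate 4. The number of members at an unadjusted p under 0.05 was 3, became 1 with limma-voom on recovered reads and ranged from 0 (without WT replicate 3) to 7 (without WT replicate 1) with 1 library left out, where 6.33% to 11.4% of all genes did, and 8.82% with limma-voom. Leaving out WT replicate 4 gave 1, as did leaving out cKO replicate 2 and cKO replicate 3. The number whose groups did not overlap was 0, became 1 with quantile normalization and ranged from 0 to 3 (without WT replicate 1) with 1 library left out, against 4.45% of all genes with quantile normalization, 7.85% without WT replicate 1 and 6.89% to 10.97% over all libraries left out in turn. The cause of these shifts was not tested. With the replicate number as a block, 2 genes passed, 0 of them members, and 4 members had an unadjusted p under 0.05 (Whrn, Zic1, Drd1 and Chat), as did 9.32% of all genes. The labels do not say that a number pairs libraries, and same-numbered libraries correlated at −0.04 to 0.03, so the numbers were not read as pairs.

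Log2 fold changes of 25 members changed sign somewhere, in each case for a member that passed in no fit. Under quantile normalization they were −0.0081 for Tle4, −0.0091 for Bcl11b, 0.080 for Irx2, −0.0013 for Ppp1r1b and 0.015 for Syndig1l. With limma-voom the value for Scnn1a was −0.0060. Array weights gave 0.0019 for Ntng1, −0.075 for Ppp1r1b and −0.47 for Isl1. Without WT replicates 3 and 4 they were −0.029 for Tbr1, −0.040 for Etv1, 0.0086 for Whrn, 0.17 for Hs3st2, 0.055 for Prkcd, 0.046 for Ntng1, 0.75 for Six3, 0.31 for Irx2, 0.24 for Drd2, 0.29 for Adora2a, 0.13 for Rgs9, 0.13 for Penk and 0.28 for Syndig1l. With 1 library left out in turn, the ranges were −0.58 to 0.19 for Adora2a, −0.028 to 0.13 for Bcl11b, −0.036 to 0.30 for Cux2, −0.12 to 0.20 for Etv1, −0.30 to 0.10 for Hs3st2, −0.055 to 1.64 for Ido1, −0.50 to 0.25 for Irx2, −1.12 to 0.86 for Isl1, −0.14 to 0.15 for Ntng1, −0.10 to 0.18 for Ppp1r1b and −0.024 to 0.27 for Rgs16. They were −0.096 to 0.13 for Rgs9, −0.19 to 0.25 for Rxrg, −0.11 to 0.13 for Scnn1a, −1.07 to 0.15 for Six3, −0.71 to 0.66 for Slc6a5, −0.16 to 0.14 for Syndig1l, −0.30 to 0.015 for Synpo2, −0.080 to 0.32 for Tbr1, −0.34 to 0.026 for Tcf7l2 and −0.067 to 0.11 for Tle4. Zic1 stayed between −1.53 and −0.87, Gpr151 between 0.45 and 0.73 and Chat between −3.23 and −2.18. Chat could not be fitted without WT replicate 2, 3 or 4 or cKO replicate 3, since it then failed the filter. Members with few reads, such as Ido1, Irx2, Slc6a5 and Chat, are limited by depth.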

Other observations

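Genes of cells other than the region markers were listed in the same way, and none of them passed limma over all genes. At an unadjusted p under 0.05, where 4.6% of all genes were lower and 4.07% higher in cKO, 3 of 12 oligodendrocyte genes were lower: Aspa (840.0 ± 154 in WT, 457 ± 74.6 in cKO, SD, n = 4), Ermn (3404 ± 456 and 2179 ± 589) and Opalin (1371 ± 217 and 844 ± 295). Of 8 ependymal genes 3 were lower at that level (Ccdc153, Dnah11 and Dnah3), and of 12 choroid plexus genes 2 (Aqp1 and Calml4). Dnah3, a dynein gene of motile cilia, had 52.7 to 121 normalized reads in WT and 20.1 to 39.3 in cKO without overlap (limma unadjusted p = 0.00088, adjusted p = 0.330), and the authors' deposited table calls it at an FDR of 0.00197. Of the oligodendrocyte genes above, the authors' deposited table calls Aspa (FDR 4.77e-05) and Ermn (FDR 0.0384). WT replicate 2 was the highest of the 8 libraries for 12 of 12 choroid plexus genes. The CA1 gene Fibcd1 (4378 ± 604 and 5506 ± 563), the interneuron peptide gene Sst (5277 ± 246 and 6380 ± 514) and the endothelial gene Ly6c1 were higher in cKO at that level, and the cerebellar gene Gabra6 was lower. None of 10 genes of CA2 and CA3, 8 of the dentate gyrus, 9 of meninges and fibroblasts and 9 of the hypothalamus had an unadjusted p under 0.05.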
